A study of Mus musculus with 4 samples.

Results

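The genes described here encode the receptor chains through which helper T cells receive the cytokines that direct their differentiation: Il12rb1, Il12rb2, Il23r, Ifngr1, Ifngr2, Il6ra, Il6st, Tgfbr1, Tgfbr2 and Il1r1. They were chosen by name, 10 of the 50600 genes counted, and all 10 were found once by gene identifier. RNA was sequenced from primary mouse T cells of strain C57BL/6NJ in 1 group of 4 libraries, biological replicates 1 to 4. By its name the differentiation protocol linked to them is one for CD4+ T cells, and no genotype, allele or cytokine treatment is named in the labels. The file headers give the cells as Th0, activated, 16 h; Th0 is the common term for helper cells activated under non-polarising conditions. Age is labelled unknown and sex not collected. The 4 biosamples carry the same donor identifier, and nothing says that they came from separate animals or cultures, so p-values rest on the spread between these samples, which may be technical. With no second condition, the comparisons are between the chains of each receptor within a library and between the replicates.

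Most cytokine receptors of this kind work as pairs of different chains, and signalling needs both chains; IL-6 can also act through a soluble form of its alpha chain on cells that carry gp130 alone. IL-12 is bound by IL-12R beta 1 and beta 2, IL-23 by the same beta 1 chain with IL-23R, and IL-6 by its alpha chain (Il6ra) with the shared signalling chain gp130 (Il6st); these belong to the class I cytokine receptors and act through JAK kinases and STAT factors. Interferon gamma uses a class II pair, Ifngr1 and Ifngr2. TGF-beta brings together a type II and a type I serine/threonine kinase (Tgfbr2 and Tgfbr1), and IL-1 brings the receptor Il1r1 to the accessory chain Il1rap. IL-12 and interferon gamma are known for promoting Th1 cells, IL-6, IL-1, IL-23 and TGF-beta for promoting or maintaining Th17 cells, and TGF-beta also for induced regulatory T cells.

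Replicates 1 to 4 had totals of 53619400, 48931322, 63313389 and 46192242 counted read pairs, of which the 10 genes took 0.0783% to 0.0882%. Levels are in TPM (counts per base of exonic length, scaled to the same total in each library). A value with ± is the mean and SD of the 4 libraries (n = 4); where 4 values stand, they run from replicate 1 to replicate 4. A gene was called detected where none of the 4 libraries was under 1 TPM. All 8 T cell markers were detected, among them Cd4 at 749 ± 30.2 TPM and Cd3e at 249 ± 19.8 TPM. Of the 2 CD8 T cell markers, Cd8b1 was detected, at 57.5 ± 3.71 TPM, and Cd8a was not, at 0.776 ± 0.38 TPM; the part of such cells in the receptor levels was not tested. Of the markers of cells other than T cells, none of 5 macrophage and monocyte, 4 dendritic cell, 4 neutrophil, 4 NK cell, 6 stromal and endothelial or 5 B cell genes was detected. Their summed level per library lay at 0.122 to 0.33 TPM for macrophages and monocytes, 0 to 0.0878 TPM for dendritic cells, 0.376 to 1.21 TPM for NK cells, 0 to 0.28 TPM for stromal and endothelial cells and 2.45 to 9.36 TPM for B cells. The 4 neutrophil genes S100a8, S100a9, Ly6g and Mpo, and also Cd14, Siglech, Pdgfra and Kdr, had a count of 0 in all libraries.

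Detected in every library were 8 of the 10 receptor genes, and 7 of these stood above 20 TPM in each library. The lowest value of the 7 was 20.4 TPM, for Tgfbr1. With the longest annotated transcript as length the mean of Ifngr2 fell to 16.3 TPM. Over all genes 22.1% were detected, and over nuclear protein-coding genes 45.2%. Il23r had no count at all, Il1r1 lay near 0, and Il12rb2 lay just over the detection level. These 3 are the cytokine-specific chains of the IL-23, IL-1 and IL-12 receptors, and in each case the partner chain was detected in every library.

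**Figure D1:**
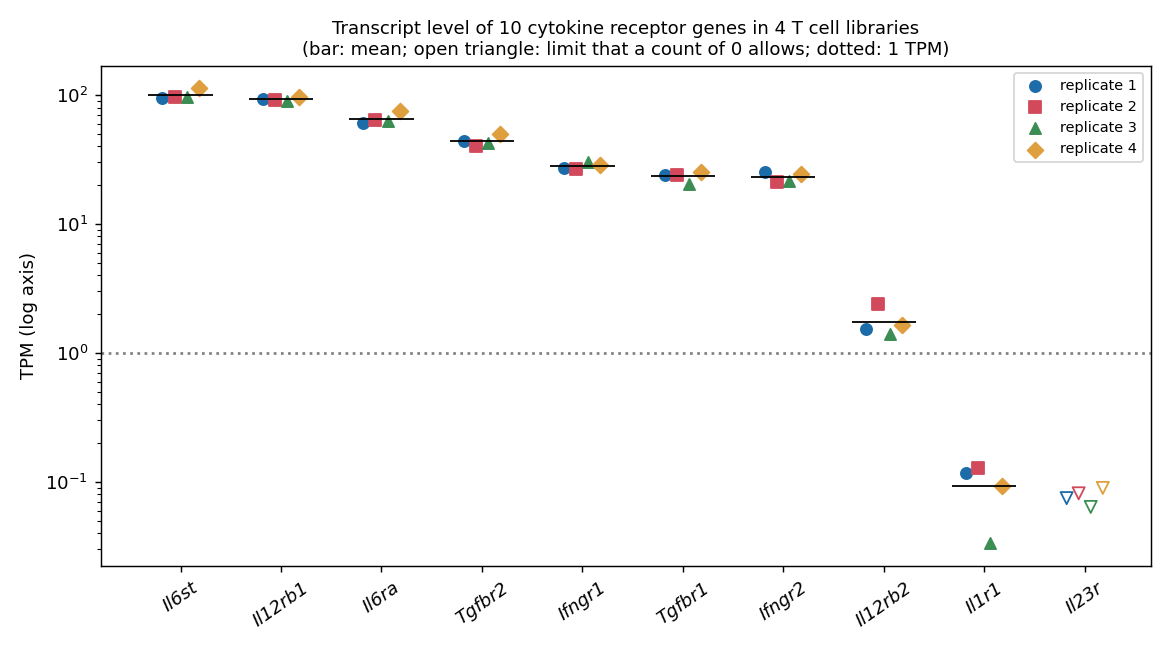
Transcript level in TPM (log axis) of the 10 receptor genes in each of the 4 libraries, ordered by mean (black bars); open triangles mark, for Il23r, the level that a count of 0 allows, and the dotted line 1 TPM. From Il6st to Ifngr2, 7 genes lie above 20 TPM, Il12rb2 lies at 1.41 to 2.39 TPM, and Il1r1 below 0.13 TPM.

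Il12rb2 (ENSMUSG00000018341.12; mm10 chromosome 6, 67291318 to 67376188), the IL-12-specific chain that binds Jak2 and recruits Stat4, lay at 1.52, 2.39, 1.41 and 1.65 TPM, from 93, 134, 101 and 84 read pairs. Il12rb1 (ENSMUSG00000000791.9; chromosome 8, 70808449 to 70821424), the chain shared by the IL-12 and IL-23 receptors that binds the kinase Tyk2, lay at 92.4, 91.3, 90.6 and 96.8 TPM. Its libraries lay close together, and its mean of 92.8 TPM exceeded that of 78.3% of the detected nuclear protein-coding genes. Il12rb2 was highest in replicate 2, and all 4 of its values were far below the lowest Il12rb1 value. Within libraries Il12rb2 was below Il12rb1 by a log2 ratio of -5.76 ± 0.34 (SD, n = 4), which is 54.1-fold, in each of the 4 (two-sided exact permutation p = 0.125 by sign-flip, also 0.125 after adjustment over 6 receptor pairs; no smaller p is possible with 4 libraries). A low level in a bulk sample cannot tell fewer cells with the transcript from less transcript per cell.

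Il12rb2 shares 1519 of its exonic bases, 40.04%, with exons of Serbp1 on the opposite strand, an RNA-binding protein gene at 201 ± 3.04 TPM. The counting used strand, and the Il12rb2 count came to 0.141%, 0.228%, 0.131% and 0.155% of the Serbp1 count in replicates 1 to 4. Set against the reads that Serbp1 would have in the shared bases at even coverage, the Il12rb2 count was 2.13%. Over 29 genes with at least 500 bases and 90% of their exonic length under exons of an abundant gene on the opposite strand, the same figure had a median of 0.00345% and an upper quartile of 0.143%, and 28 of the 29 lay below that of Il12rb2. The Il12rb2 count also takes in reads from its exonic bases outside the overlap, whereas the 29 genes have few such bases. The figures are therefore not like for like, and the part of Serbp1 reads in the Il12rb2 count was not tested. This comparison was chosen after the overlap was seen.

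Il23r (ENSMUSG00000049093.9; chromosome 6, 67422932 to 67491855), the IL-23-specific chain that recruits Stat3, had a count of 0 in all 4 libraries. On the basis of the 95% intervals used below for Il1r1, a count of 0 allows up to 3.69 counts. The limit used here is 3 counts, an upper bound alone at 95% confidence, or 0.0639 to 0.0898 TPM in a library (counting error only). Taken at that limit per library, Il23r was at least 1077.6-fold lower than Il12rb1 in the library where the bound is weakest, and below it in each of the 4 (two-sided exact permutation p = 0.125, as for all 6 pairs). Il12rb1 was the abundant chain of both receptors at the transcript level, with Il12rb2 low and Il23r not detectable at this depth.

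Il12rb2 and Il23r lie next to each other on chromosome 6, both on the minus strand, with 46.7 kb between the annotated genes. The promoter windows of these 2 genes are printed with that of Il6st, the receptor gene with the highest level, because they are the highest of the 10 genes and the neighbouring pair at low level, and because their CpG content differs. They are RefSeq windows (build GRCm38.p6) of 300 bases, 250 before and 50 after the annotated start, given 5′ to 3′ on the gene's strand with CpG dinucleotides in capitals: chr6:67376139-67376438 (minus) for Il12rb2, chr6:67491806-67492105 (minus) for Il23r and chr13:112463820-112464119 (plus) for Il6st.
Il12rb2: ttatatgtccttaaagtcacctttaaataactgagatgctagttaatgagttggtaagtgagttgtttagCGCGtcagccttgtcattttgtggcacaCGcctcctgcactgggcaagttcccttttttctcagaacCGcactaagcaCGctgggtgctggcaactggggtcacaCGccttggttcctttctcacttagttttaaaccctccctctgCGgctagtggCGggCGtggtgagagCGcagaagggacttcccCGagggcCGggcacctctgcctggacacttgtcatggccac
Il23r: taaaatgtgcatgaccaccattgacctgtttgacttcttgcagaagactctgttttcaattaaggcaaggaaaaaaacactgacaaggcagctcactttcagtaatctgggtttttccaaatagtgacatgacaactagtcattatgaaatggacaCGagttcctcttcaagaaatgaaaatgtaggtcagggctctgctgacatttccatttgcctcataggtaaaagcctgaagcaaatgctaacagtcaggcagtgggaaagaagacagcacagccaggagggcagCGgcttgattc
Il6st: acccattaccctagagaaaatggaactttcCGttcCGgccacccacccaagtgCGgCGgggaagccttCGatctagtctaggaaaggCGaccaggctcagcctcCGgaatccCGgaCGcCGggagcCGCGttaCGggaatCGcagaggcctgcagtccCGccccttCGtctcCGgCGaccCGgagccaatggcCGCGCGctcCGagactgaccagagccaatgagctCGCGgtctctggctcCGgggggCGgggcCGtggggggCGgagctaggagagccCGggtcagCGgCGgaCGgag
The Il12rb2 window held 12 CpG dinucleotides, the Il23r window 2 and the Il6st window 33.

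Promoter windows were found for 9 of the 10 genes; Il12rb1 had no entry. At the annotated starts, Ifngr1 held 14 CpG dinucleotides, Ifngr2 31, Il6ra 25, Tgfbr1 34, Tgfbr2 15 and Il1r1 5. The 3 genes of lowest level had the 3 lowest CpG numbers at these starts, at 2, 5 and 12. A second annotated start inside the gene held 14 for Il1r1 and 3 for Tgfbr1. Of 21255 promoter windows of protein-coding genes, 11.4% held fewer CpG than that of Il23r, 28.4% fewer than that of Il1r1, 47.2% fewer than that of Il12rb2 and 88.7% fewer than that of Il6st. The median was 21 in windows of genes at 1 TPM or more in every library and 5 in windows of genes under 1 TPM in every library. The letters TTCNNNGAA, the sequence bound by many STAT dimers, were found on either strand in the Il12rb2 window and in none of the other 8 windows at the annotated starts, against 7.69% of all windows. The letters TGANTCA, an AP-1 sequence, were found in none of the 9, against 6.99% of all windows. These letter matches describe the windows only.

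**Figure D2:**
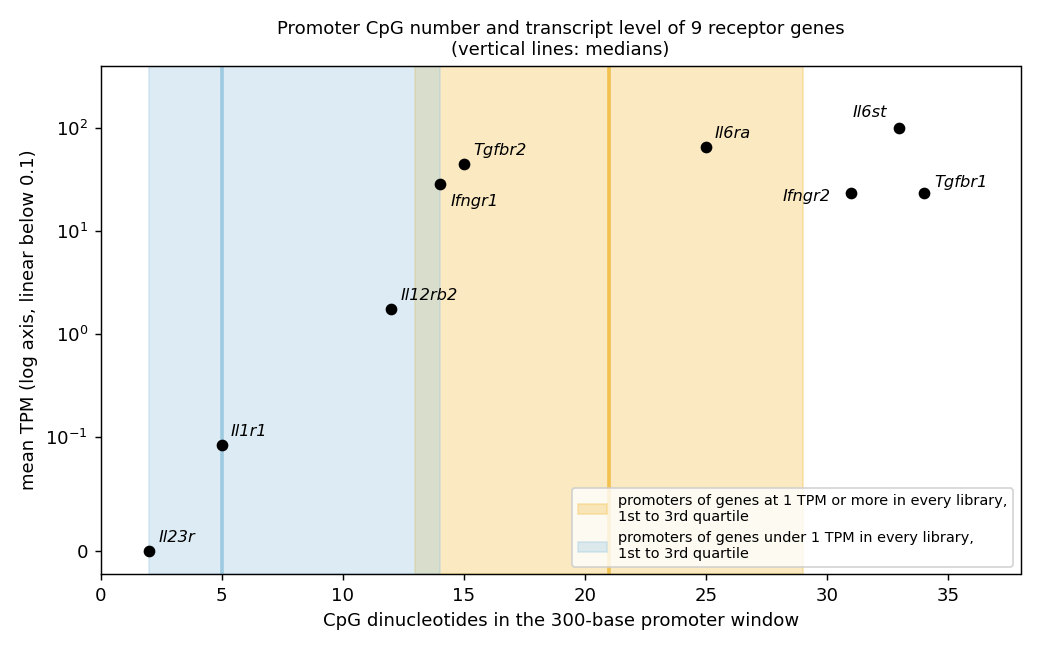
Number of CpG dinucleotides in the 300-base promoter window (x axis) against mean TPM (y axis, log above 0.1) for 9 receptor genes (points), with the range from 1st to 3rd quartile for genes at 1 TPM or more in every library (yellow, median 21) and genes under 1 TPM in every library (blue, median 5). Il23r (2), Il1r1 (5) and Il12rb2 (12) have the fewest CpG and the lowest levels.

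For the interferon gamma receptor both chains were present at similar level. Ifngr1 (ENSMUSG00000020009.12; chromosome 10, 19591949 to 19610229), the ligand-binding chain that binds Jak1, lay at 27.4, 26.5, 30.2 and 28.8 TPM. Ifngr2 (ENSMUSG00000022965.7; chromosome 16, 91547072 to 91565169), the partner that brings Jak2, lay at 25.5, 21.04, 21.5 and 24.4 TPM. The 2 ranges did not overlap, and the lowest Ifngr1 library stood only just above the highest Ifngr2 library. Within libraries Ifngr1 exceeded Ifngr2 by a log2 ratio of 0.29 ± 0.16 (SD, n = 4), or 1.22-fold, in 4 of 4 libraries (exact sign-flip permutation p = 0.125). The size of this difference depended on the gene length used. The log2 ratio was 0.89 with the longest annotated transcript of each gene and 0.07 for counts with no length correction (exact sign-flip permutation p = 0.5). For Ifngr2 that transcript (GENCODE M21, 3708 bases) is longer than the exonic length used in counting (3313 bases). The 0.89 therefore mixes a change of length with a change of annotation.

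The IL-6 receptor chains were both abundant. Il6ra (ENSMUSG00000027947.11; chromosome 3, 89864059 to 89913196), the IL-6-binding alpha chain, lay at 60.5, 64.5, 62.8 and 74.7 TPM. Il6st (ENSMUSG00000021756.12; chromosome 13, 112464070 to 112510086), which encodes gp130, the signalling chain shared with the IL-27 receptor and other receptors of the IL-6 family, lay at 94.2, 96.4, 96.3 and 112 TPM and was the highest of the 10 genes. Both chains were highest in replicate 4, and the other 3 libraries lay close together. Between libraries the ratio of the chains was the steadiest of those computed. Il6ra was below Il6st by a log2 ratio of -0.61 ± 0.03 (SD, n = 4), or 1.52-fold, in 4 of 4 libraries (exact sign-flip permutation p = 0.125). The size of the ratio depended on the gene length used. It was -0.96 with the longest annotated transcript of each gene and -0.97 with no length correction.

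For TGF-beta the type II chain exceeded the type I chain. Tgfbr2 (ENSMUSG00000032440.13; chromosome 9, 116084293 to 116175360), the kinase that binds the ligand first, lay at 44.1, 40.1, 42.6 and 49.8 TPM. Tgfbr1 (ENSMUSG00000007613.15; chromosome 4, 47353222 to 47414931), the kinase that phosphorylates Smad2 and Smad3, lay at 24.2, 24.1, 20.4 and 25.4 TPM. The ranges were well apart, with replicate 4 highest and replicate 2 lowest for Tgfbr2 and replicate 3 lowest for Tgfbr1. The log2 ratio of Tgfbr2 to Tgfbr1 was 0.91 ± 0.14 (SD, n = 4), or 1.88-fold, in 4 of 4 libraries (exact sign-flip permutation p = 0.125). It was 0.74 with the longest annotated transcript of each gene and 1.23 with no length correction.

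Il1r1 (ENSMUSG00000026072.12; chromosome 1, 40225080 to 40317257), the IL-1-binding chain with the cytoplasmic domain that recruits Myd88, had 12, 12, 4 and 8 read pairs, or 0.117, 0.128, 0.0333 and 0.0936 TPM. The exact Poisson intervals of these counts at 95% confidence ran from 6.2 to 21, from 6.2 to 21, from 1.09 to 10.2 and from 3.45 to 15.8, so the libraries overlapped within counting error. Its partner Il1rap (ENSMUSG00000022514.14; chromosome 16, 26581704 to 26730117), which was added to the comparison as the second chain and is not among the 10 genes, lay at 4.47, 5.21, 4.93 and 5.35 TPM. Il1r1 was below Il1rap by a log2 ratio of -5.82 ± 0.85 (SD, n = 4), or 56.5-fold, in 4 of 4 libraries (exact sign-flip permutation p = 0.125). With the longest annotated transcript the log2 ratio was -7.02, since the exonic length of Il1rap is 11360 bases and its longest transcript 4520.

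**Figure D3:**
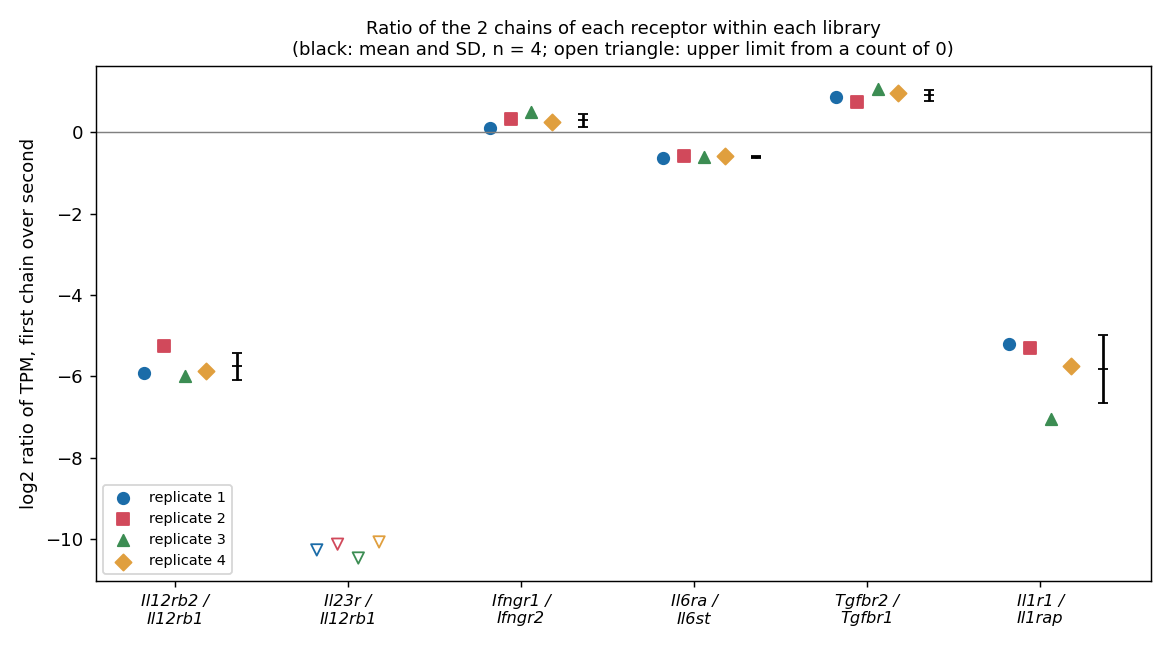
Log2 ratio of TPM of the first chain over the second, within each library (symbols), for the 6 receptor pairs, with mean and SD in black (n = 4); open triangles mark the upper limit from the count of 0 for Il23r. The ratios lie near -6 for Il12rb2 over Il12rb1 and Il1r1 over Il1rap, below -10 for Il23r over Il12rb1, and between -0.64 and 1.06 for the other 3 pairs.

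Ordered by the level of the lower chain, the receptors ran from IL-6 (Il6ra, 65.6 ± 6.25 TPM) over TGF-beta (Tgfbr1, 23.5 ± 2.16 TPM), interferon gamma (Ifngr2, 23.1 ± 2.17 TPM) and IL-12 (Il12rb2, 1.74 ± 0.441 TPM) to IL-1 (Il1r1, 0.0929 ± 0.0421 TPM) and IL-23 (Il23r, count of 0). Tgfbr1 and Ifngr2 could not be put in order, since Tgfbr1 was the higher in 2 of 4 libraries. Among the 10 genes the other neighbours whose ranges overlapped were Il6st and Il12rb1, although Il6st was higher in 4 of 4 libraries; with the longest annotated transcript their means were 101 and 104 TPM and the order turned. For the remaining neighbours in the order the ranges of the 4 libraries were apart. In 4 pairs the chain specific to the cytokine (Il12rb2, Il23r, Il6ra and Il1r1) was the lower one, and in the other 2 (Ifngr1 and Tgfbr2) the ligand-binding chain was the higher one. These are transcript levels; the protein at the cell surface was not measured.

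Of 12285 genes tested for spread, 28 (0.228%) passed at an adjusted p under 0.05 (edgeR quasi-likelihood, Benjamini-Hochberg); 8 of the 10 receptor genes had enough counts to be tested and 0 of them passed, which at this overall share says little about the 8 genes. In 6 of the 8 the SD was above the median of genes of like level, the highest placed being Il6ra, above 81.9% of them. At an unadjusted p under 0.05 the number of these 8 was also 0, as was their number among DESeq2 dispersion outliers. The lowest edgeR adjusted p was 0.95, for Il6ra. The SD of log2 CPM (counts scaled to a common total, with no length correction) ran from 0.02 for Il12rb1 to 0.34 for Il12rb2, with a median of 0.11, against a median of 0.09 over tested genes whose mean reached 1 TPM. Single libraries set several of these values: without replicate 2 the SD of Il12rb2 was 0.0931, against 0.155 for Tgfbr1. Without replicate 3 the SD was 0.0107 for Tgfbr1 and 0.0324 for Ifngr1, against 0.0139 for Il12rb1. Without replicate 4 it was 0.0506 for Il6ra and 0.0643 for Tgfbr2. Counting noise alone gives an SD of about 0.02 for Il12rb1 and 0.14 for Il12rb2.

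The SD of Il12rb1 was below that of 94.9% of tested genes within 0.5 log2 of its level, and the SD of Il6st (0.09), close to it in level, exceeded that of 77.4%. This difference rested on replicate 4: without it the SD was 0.02 for both genes. Replicate 4 was the highest library for Il6st, Il6ra, Tgfbr2, Tgfbr1 and Il12rb1. Relative to the mean of the other 3 libraries, replicate 4 was higher by 0.25 log2 for Il6ra (8642 exonic bases), 0.24 for Tgfbr2 (8187 bases), 0.23 for Il6st (11099 bases) and 0.15 for Tgfbr1 (6534 bases), against 0.02 for Il1r1 (6363 bases, few counts), 0.08 for Il12rb1 (4105 bases), -0.11 for Il12rb2 (3794 bases), 0.10 for Ifngr2 (3313 bases) and 0.04 for Ifngr1 (2847 bases). Over detected nuclear protein-coding genes the median of the same log2 ratio was 0.11 for 2827 genes of 6000 or more exonic bases, 0.04 for 3997 genes of 3000 up to 6000 bases and -0.02 for 3016 shorter genes. The part of this length trend in the levels of single receptor genes was not tested.

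**Figure D4:**
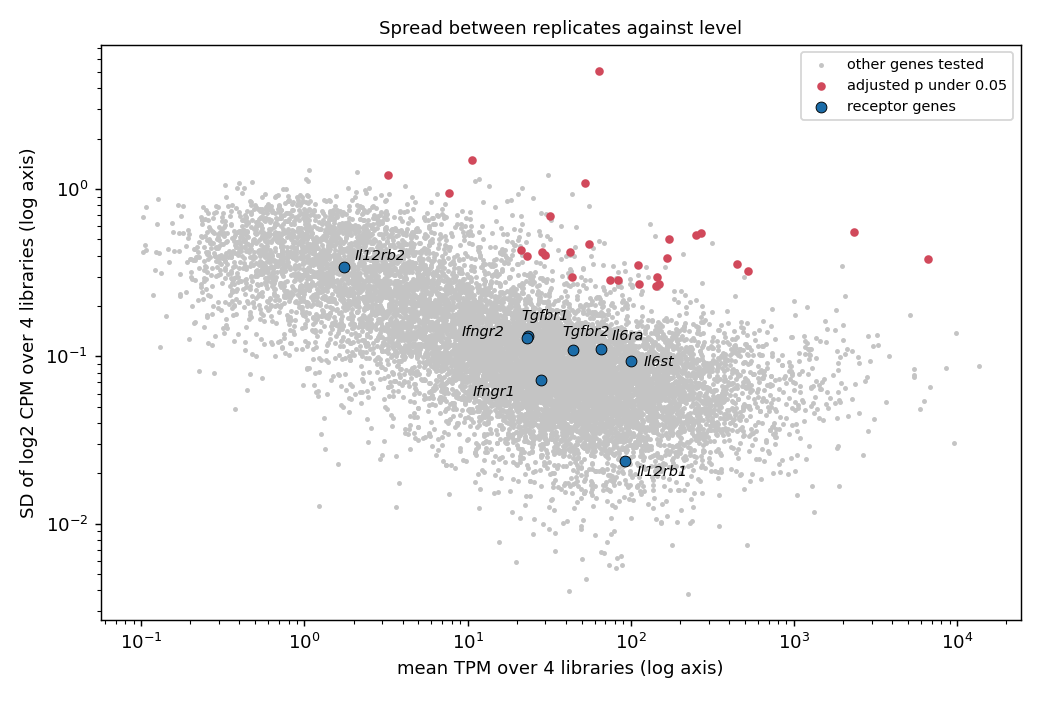
SD of log2 CPM over the 4 libraries (y axis, log) against mean TPM (x axis, log) for the genes tested for spread at a mean above 0.1 TPM (grey), those with adjusted p under 0.05 (red) and the 8 tested receptor genes (blue). Over all 4 libraries Il12rb2 has the largest SD of the 8 (0.34; 0.09 without replicate 2) and Il12rb1 the smallest (0.02; above that of Tgfbr1 without replicate 3); none is among the red points.

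The signalling genes below these receptors were all present. All 15 listed kinases, adaptors and transcription factors were detected (median level 57.6 TPM), against 45.2% of nuclear protein-coding genes. The test for spread was passed by 0 of the 15, which says little where 0.228% of all genes tested passed. Jak1, which serves Ifngr1 and gp130, lay at 189.6 ± 8.44 TPM, Jak2, which serves Il12rb2, Il23r and Ifngr2, at 125 ± 7.84 TPM, and Tyk2, which serves Il12rb1, at 56.6 ± 4.01 TPM. Stat4, the main factor of IL-12 signalling, lay at 28.8 ± 0.647 TPM, and Stat3, that of IL-6 and IL-23, at 57.4 ± 2.62 TPM. Each of these 5 genes stood well above Il12rb2, Il1r1 and Il23r in the same libraries. Smad2 lay at 77.2 ± 1.19 TPM and Smad3, its partner below Tgfbr1, at 21.4 ± 1.49 TPM. Myd88, the adaptor of IL-1 signalling, lay at 139 ± 3.4 TPM although its receptor chain Il1r1 was near 0.

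Of the 12 listed ligand genes 3 were detected, against 45.2% of nuclear protein-coding genes. These were Tgfb1 at 105 ± 6.34 TPM, Ebi3, a subunit of IL-27, at 6.64 ± 2.31 TPM, and Il1a at 2.89 ± 0.458 TPM. Il12a, Il12b and Il27 had a count of 0 in all libraries, Il6 had 1 read pair in all, and Il23a and Ifng had 10 and 12. Tgfb1 alone of the listed ligands exceeded 10 TPM. Of 22 related and accessory receptor chains 15 were detected, against the same 45.2%. Il27ra, the partner of gp130 in the IL-27 receptor, lay at 125 ± 6.94 TPM, and Il4ra, the IL-4 receptor chain that Th2 polarisation uses, at 113 ± 7.68 TPM. The other gp130 partners Lifr, Osmr and Cntfr had a count of 0, and Il11ra1 lay at 2.23 ± 0.265 TPM. Among IL-1 family chains, Il1r2, the decoy receptor, lay at 0.26, 0.248, 0.806 and 0.781 TPM, Il18r1 at 0.372 ± 0.0778 TPM and Il1rl1 at 0.0845 ± 0.0483 TPM, while Sigirr, an inhibitory member, lay at 37.3 ± 2.83 TPM. Tgfbr3, a TGF-beta co-receptor, lay at 10.8 ± 0.498 TPM.

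Of 13 feedback and shedding genes 12 were detected, against 45.2% of nuclear protein-coding genes. The number past the test for spread was 0, which says little where 0.228% of all genes tested passed. Socs1, an inhibitor of interferon gamma signalling, lay at 67.4 ± 9.86 TPM, Socs3, the inhibitor that binds gp130, at 4.7 ± 1.31 TPM, and Smad7, the inhibitor of Tgfbr1, at 18.4 ± 1.69 TPM, while Smad6 lay below 0.14 TPM in every library. Adam10 and Adam17, proteases that can release Il6ra from the cell surface, lay at 146 ± 6.45 TPM and 39.1 ± 1.26 TPM. Of 6 lineage factors 4 were detected, against the same 45.2%. Tbx21, the Th1 factor, lay at 0.274, 1.09, 0.789 and 0.239 TPM where Il12rb2 lay at 1.41 to 2.39 TPM.

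In the neighbourhoods of the 3 low receptor genes some genes were detected and others were not. Over all nuclear protein-coding genes 45.2% were detected. Within 500 kb of Il12rb2 there were 6 other protein-coding genes, of which 3 were detected: Serbp1, Gng12 at 9.13 ± 0.714 TPM and Gadd45a at 1.94 ± 0.193 TPM. Within 500 kb of Il1r1, 2 of 11 other protein-coding genes were detected: the kinase gene Map4k4 at 64.6 ± 2.67 TPM and Il1rl2, which encodes an IL-36 receptor chain and begins 7.35 kb from the end of Il1r1, at 4.03 ± 0.293 TPM. Il1rl2 was higher than every other receptor gene of this cluster: Il1r2, Il1r1, Il1rl1, Il18r1 and Il18rap all lay below 1 TPM in each library.

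**Figure D5:**
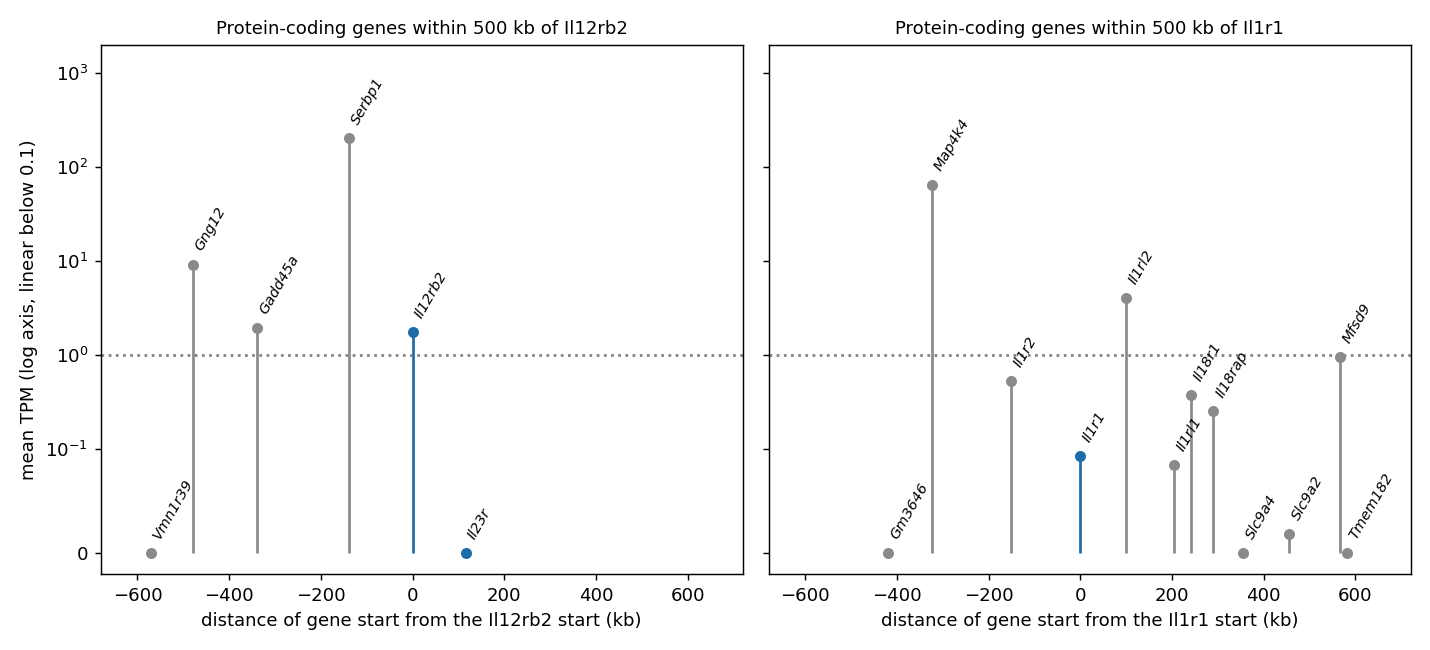
Mean TPM (y axis, log above 0.1) of protein-coding genes within 500 kb of Il12rb2 (left) and Il1r1 (right), against the distance of their start from that of the named gene in kb, toward higher coordinates on the right; receptor genes of the list are blue and others grey, and 1 gene of the left panel is not shown. Il12rb2 and Il23r stand beside Serbp1 at 201 TPM, and in the Il1r1 cluster Il1rl2 alone among the interleukin receptor genes exceeds 1 TPM.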

How the data were processed

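Unnormalised counts, in read pairs by gene, were deposited by the authors. Per the file headers these came from featureCounts 1.4.6-p4 with GENCODE M13 exons, reverse-stranded, requiring both mates and recording no setting for reads with several matches, on alignments named for STAR (version not given in the sources used here); labels name mm10. By the labels the assay is total RNA-seq, but they link a library protocol named for polyA+ RNA. TPM was computed from counts and the deposited exonic length, after which levels between genes can be compared per length. Symbols and transcript lengths came from GENCODE M21 (50376 of 50600 identifiers matched). Spread was tested with edgeR 4.0.16 (R 4.3.3): TMM, filterByExpr, intercept only, robust quasi-likelihood, residual spread on 3 degrees of freedom against the trended prior; DESeq2 1.42.0 was the alternative. The spread test was also run on simulated data in which spread was added to some genes. The added SD was set larger than that of any receptor gene tested, so the run does not show the power for these genes. Chain ratios were log2 TPM with 0.5 added to each count, tested by exact sign-flip over libraries (6 pairs). SD of log2 CPM used a prior count of 2. Other steps used Python 3.11.15 with pandas 2.3.3, numpy 2.4.6, matplotlib 3.10.9 and scipy 1.17.1.

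The receptor genes and the lists were chosen with earlier results of these data known. Named by rule were all 10 genes, Il1rap, detected list genes that signal directly for a receptor and genes passing the spread test; other genes (ligands, related chains, neighbours) were named after their values were seen. Some genes of the lists and neighbourhoods are counted but not reported here. No genes were named for a pattern like a receptor's, since 4 libraries of 1 group give no correlation. Alternatives covered gene length, TPM denominator, detection floor, added counts, count filter, scaling, test and each replicate left out. Depth per library is in the report; intervals and limits cover counting error only.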

Additional observations from a re-analysis of the deposited data

Results flagged for a closer look

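Il6st in replicate 4 stood apart from the other libraries, at 112 TPM against 96.4 TPM in the nearest. Its gap to that library was 0.88 of the whole range of the 4. It was the 1 case among 16 sets of 4 values examined (9 receptor genes with a count, Il1rap and 6 chain ratios); chance alone marks about 1 in 20. Il6ra, Tgfbr2, Tgfbr1 and Il12rb1 were also highest in replicate 4, and the ratio of Il6ra to Il6st in that library was not apart from the others. Replicate 4 gave higher values for genes of long exonic sequence in general, as described above, and the part of that trend in the Il6st value was not tested.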

How the results depend on the processing

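All 6 chain ratios, as means over the libraries, kept their direction under all 48 alternatives. In single libraries this did not always hold. With no length correction Ifngr1 was below Ifngr2 in replicate 1, at 1255 against 1360 read pairs. The number of receptor genes detected was 8 under 5 of 6 alternatives and 7 at a floor of 5 TPM. Adding 1 to TPM in place of 0.5 to counts, which shrinks ratios of low genes, gave log2 ratios of -2.45 for Il1r1 to Il1rap and -6.55 for Il23r to Il12rb1. The number past the spread threshold was 0 under all 7 alternatives. With the longest annotated M21 transcript as length, mean TPM became 104.5 for Il12rb1, 29.98 for Ifngr1, 16.3 for Ifngr2, 51.7 for Il6ra, 21.03 for Tgfbr1 and 35.2 for Tgfbr2. For Ifngr2 that transcript, at 3708 bases, is longer than the 3313 exonic bases used in counting. With nuclear protein-coding genes alone in the denominator, mean TPM became 98.6 for Il12rb1 and 29.98 for Ifngr1. The other 52 of 60 level alternatives moved by less than the SD between replicates. At a floor of 5 TPM the detected ligands became 1. Over all genes the 28 past the spread threshold became 142 without a count filter, 84 as DESeq2 dispersion outliers, and 14 to 27 with a replicate left out; the 14 came without replicate 3. The causes were not tested. With any replicate left out the lowest edgeR adjusted p of a receptor gene was 0.87. No paired analysis was possible because the series has 1 group. Depth limits Il1r1, with 4 to 12 read pairs per library, and Il23r, whose true level may lie anywhere under its limit.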

Other observations

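Some receptor genes near those described above were at a similar level and others were not detected. Within 500 kb of Ifngr2 on chromosome 16 lie the receptor chain genes Ifnar1, Ifnar2 and Il10rb, which stood at 33.0 ± 2.12, 23.7 ± 0.691 and 11.03 ± 0.618 TPM (SD, n = 4), all detected as Ifngr2 was. On chromosome 10, Ifngr1 at 28.2 ± 1.63 TPM lies 11.8 kb from Il22ra2, the gene of the IL-22 decoy receptor, and 102 kb from Il20ra, and both of these had a mean of 0 TPM. On chromosome 13, Il31ra, the gene of a gp130-like chain 12.7 kb from Il6st, was also at 0 TPM beside Il6st at 99.8 ± 8.48 TPM. The genes were picked after their values were seen, and no test was made.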
